A study of Mus musculus with 6 samples.

Results

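This report follows the genes of voltage-gated sodium channels, voltage-gated calcium channels and hyperpolarization-activated cyclic nucleotide-gated (HCN) channels in the medial prefrontal cortex of mice, a part of the frontal lobe. They were chosen by symbol, as every gene whose name begins with Scn, a number and a or b, with Cacna1, Cacna2d or Cacnb and a number, or with Hcn and a number. The choice gave 36 of 19943 genes, of which 24 encode pore-forming subunits and 12 auxiliary subunits. RNA sequencing covered 6 libraries from C57BL/6 mice: 3 of control animals (control 1 to 3) and 3 of animals kept in social isolation for 3 weeks after weaning (isolated 1 to 3). The sample labels give an age of 6 weeks for both groups, the design text states 7 weeks, and neither source says how the controls were housed or whether each library came from a separate animal. The p-values therefore measure the spread between these libraries, which may be technical.

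Voltage-gated sodium and calcium channels are each built around 1 large alpha subunit that forms the pore and senses the membrane potential. Sodium channels carry the upstroke of the action potential, and calcium channels couple depolarization to transmitter release, dendritic signalling and gene regulation. HCN channels open when the membrane is hyperpolarized, pass a depolarizing current and are tuned by cyclic AMP. Auxiliary subunits, the sodium channel beta subunits and the calcium channel beta and alpha-2-delta subunits, change how many channels reach the membrane and how they gate.

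Depth was even, between 18226448 and 18606573 expected counts per library. Markers of cortical excitatory neurons were present in every library, with the list of 6 summing to between 1948 and 2515 CPM (counts scaled by total and TMM factor to a common library size). A pair of libraries, 1 from each group, stood apart from the rest. All 15 of 15 genes of a striatal projection neuron list, markers of the main neuron of the neighbouring striatum, were highest of the controls in control 2 and highest of the isolated in isolated 3. Summed over the list, CPM values were 1336, 4111 and 491 for control 1 to 3 and 711, 708 and 2993 for isolated 1 to 3, and none of its genes was at 0 in any library. All 15 had a lower mean in isolated libraries, with a median log2 difference of -0.41, and none passed the test. The same pair was lowest for the sum of the cortical excitatory list, at 1948 and 2001 CPM against 2332 to 2515 CPM in the other 4 libraries. Also lowest in this pair was the sum of 8 upper-layer markers, at 1440 and 1255 CPM. The pair was highest for the sum of 11 deep-layer markers, at 858 and 848 CPM, and of 8 interneuron markers, at 1061 and 1058 CPM. Of the single genes, 6 of these 11 and 3 of these 8 were highest of their group in both libraries. Others, such as Fezf2 and Pvalb, were lowest of the controls in control 2. Summed astrocyte markers spanned 3980 to 4241 CPM among controls and 3702 to 3868 CPM among isolated libraries. Slc1a2 made up most of this sum. For Slc1a2 and Aqp4 the groups did not overlap, which was so for 8.85% of all tested genes. For Aldh1l1, Fgfr3, Gfap, Gja1, S100b and Slc1a3 the groups overlapped. Of the astrocyte list 7 of 8 were lower in isolated libraries, as were 7 of 8 microglia markers, 8 of 8 vascular markers and 50.8% of all tested genes. Mature oligodendrocyte markers had a higher mean in isolated libraries for 10 of 10. Summed, they spanned 2808 to 4694 CPM among controls and 3657 to 6702 CPM among isolated libraries. Isolated 3 was the high library, at 6702 CPM. Isolated 1 and isolated 2, at 3657 and 3936 CPM, lay within the control range. The part of these markers in the channel results was not tested. In bulk tissue, fewer cells of a type and less RNA per cell cannot be told apart.

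Levels are compared between genes on the FPKM scale, which divides by gene length and library size. On that scale 25 of the 36 genes had a mean of at least 5 FPKM over the 6 libraries, 14 of them pore-forming and 11 auxiliary. The auxiliary genes summed to between 749 and 887 FPKM per library and the pore-forming genes to between 342 and 358 FPKM. The plot of levels by gene shows the spread from over 100 FPKM for Cacnb3 to genes at or near 0.

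**Figure D1:**
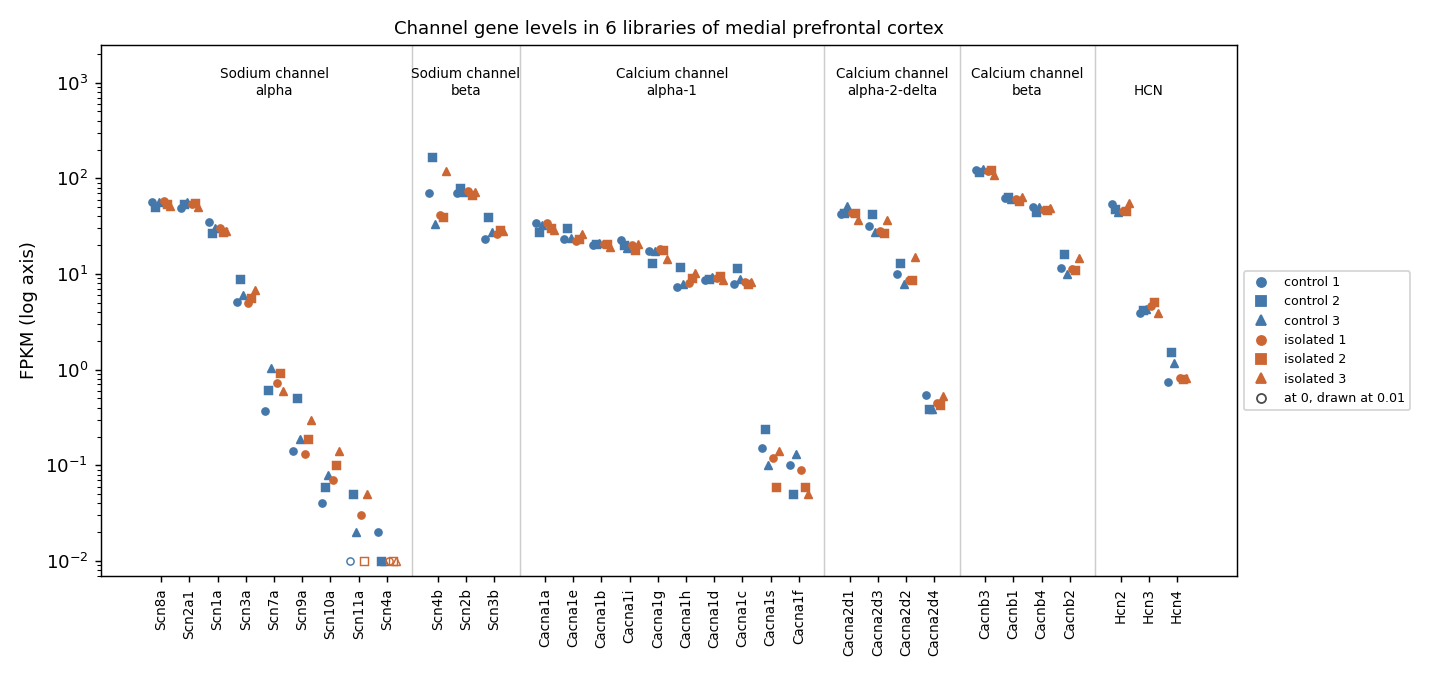
FPKM of the channel genes reported here (log axis), by family and in order of mean level, with 1 point per library (blue, control; orange, isolated; symbol, replicate; open symbols are values of 0 drawn at 0.01). Cacnb3 lay between 108 and 126 FPKM in every library, and for Scn4b control 2 and isolated 3 stood above the other libraries.

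Among sodium channel alpha genes, Scn8a, Scn2a1 and Scn1a together made up between 92.3% and 95.9% of the summed FPKM of the 10 alpha genes in every library. Scn8a encodes the channel of the axon initial segment and nodes of Ranvier, Scn2a1 (Scn2a in RefSeq) a channel of excitatory neurons, and Scn1a the main channel of fast-spiking interneurons. Scn8a was measured at 55.9, 50.5 and 57.2 FPKM in control 1 to 3 and at 57.6, 53.6 and 51.9 FPKM in isolated 1 to 3. Isolated 1 was the highest library and control 2 the lowest, with overlapping groups, and on counts its log2 difference of isolated over control was -0.01 (95% interval -0.18 to 0.17, edgeR adjusted p = 0.999). Scn2a1 stood at 53 ± 3.78 FPKM in control and 53 ± 2.55 FPKM in isolated libraries (SD, n = 3), which overlaps with Scn8a. Scn1a was lower than both, at 30.7 ± 4.41 and 28.5 ± 1.49 FPKM (SD, n = 3). Its level in control 1, 35.3 FPKM, was the highest of the 6 libraries.

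The other alpha genes were far below these. Scn3a, best known from the embryonic brain, stood at 6.67 ± 1.89 FPKM in control and 5.75 ± 0.919 FPKM in isolated libraries (SD, n = 3). Scn7a, which encodes a sodium-level sensor rather than a voltage-gated channel, had 0.68 ± 0.344 and 0.75 ± 0.161 FPKM (SD, n = 3). Scn9a, a gene of peripheral sensory neurons, was counted at 1.41, 5.01 and 1.92 CPM in control 1 to 3 and at 1.3, 1.9 and 2.98 CPM in isolated 1 to 3, highest in control 2 and isolated 3 within each group.

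Of the 36 genes, 4 did not pass the filter on low counts and were not tested. The skeletal muscle channel gene Scn4a had 2 counts in control 1, 1 count in control 2 and none in the other 4 libraries. Scn11a, a gene of pain-sensing neurons, was absent from control 1 and isolated 2 and had between 2 and 5 counts in the other 4 libraries. Scn10a, also of pain-sensing neurons, had between 4.61 and 16.3 expected counts, and Cacna1f, the calcium channel gene of photoreceptor synapses, between 6 and 15 counts. A count of 0 allows up to 3 counts in a library, which is 0.162 CPM in control 1 and 0.163 CPM in isolated 2. These limits cover counting error only.

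The sodium channel beta genes were the most abundant family. Scn2b, whose product is linked to the alpha subunit by a disulfide bond, stood at 73.8 ± 5.05 FPKM in control and 70.9 ± 3.31 FPKM in isolated libraries, and Scn3b at 30.1 ± 8.17 and 27.8 ± 1.47 FPKM (SD, n = 3). Scn4b, whose product takes part in the resurgent sodium current and which is abundant in striatal projection neurons, varied more than both. It was counted at 301, 713 and 142 CPM in control 1 to 3 and at 179, 168 and 504 CPM in isolated 1 to 3. The highest library held 5.01 times the level of the lowest, both of them controls. Within each group its order over the libraries was that of the striatal list. The log2 difference of Scn4b was -0.44 with a 95% interval from -1.89 to 1 (edgeR adjusted p = 0.999). It was 0.36 without control 2, -1.15 without isolated 3 and -0.35 without both. With the mean of the striatal list as a covariate it was -0.2 (unadjusted p = 0.00618, edgeR adjusted p = 0.754). With that covariate Cacna2d1 was the other channel gene under 0.05 before adjustment (log2 difference -0.18, edgeR adjusted p = 0.768). In that fit 2 of 32 channel genes and 897 of all 15169 tested genes were under 0.05 before adjustment.

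Scn2b and Scn4b lie side by side on chromosome 9 (GRCm38), on the plus strand, Scn2b from 45117876 to 45130070 and Scn4b from 45138624 to 45154155, with 8.55 kb between them. Scn2b kept within 308 to 362 CPM over the 6 libraries in which Scn4b ranged from 142 to 713 CPM. The 250 bases before the annotated start of each (RefSeq, GRCm38.p6, plus strand, 5′ to 3′) are shown because these neighbours differ so much in their spread between libraries. Capitals mark each CG dinucleotide, which reads the same on both strands.
Scn2b, chr9:45117626-45117875: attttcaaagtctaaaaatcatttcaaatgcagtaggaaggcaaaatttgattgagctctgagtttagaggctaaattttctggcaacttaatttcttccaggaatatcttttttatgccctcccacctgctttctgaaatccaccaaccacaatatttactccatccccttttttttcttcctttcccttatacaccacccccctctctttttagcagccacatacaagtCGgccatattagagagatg
Scn4b, chr9:45138374-45138623: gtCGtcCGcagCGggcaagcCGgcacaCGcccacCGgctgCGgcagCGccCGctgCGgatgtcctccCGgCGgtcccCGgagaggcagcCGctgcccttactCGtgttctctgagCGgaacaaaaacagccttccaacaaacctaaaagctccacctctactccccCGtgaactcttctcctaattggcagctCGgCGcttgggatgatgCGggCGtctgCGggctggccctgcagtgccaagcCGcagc

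The window of Scn2b held 1 CG and 38.4% G and C, and that of Scn4b held 23 CG and 66% G and C. Over 32851 annotated windows of this length, 92.1% held a CG and the median was 6. At most 1 CG was found in 18.8% of them, which includes windows with none, and 23 or more in 13.3%. RefSeq windows were found for 26 of the 36 channel genes (36 windows, some genes having several), with between 1 and 50 CG. These counts describe the letters of the windows and no binding or methylation was measured.

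Calcium channel alpha-1 genes were spread over more members than sodium channel alpha genes. The genes of the P/Q-type (Cacna1a), N-type (Cacna1b) and R-type (Cacna1e) channels, which serve transmitter release and dendritic calcium entry, together held between 54.2% and 55.2% of the summed alpha-1 FPKM in every library. The T-type genes Cacna1g, Cacna1h and Cacna1i, whose channels open at low voltage, held between 31.5% and 33.4%. The L-type genes Cacna1c, Cacna1d, Cacna1f and Cacna1s held between 11.9% and 14.4%. Cacna1a alone held between 19.1% and 24.3%, and Cacna1b between 14% and 15.2%.

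Cacna1a was the highest of the family, at 34.1, 27.4 and 32.4 FPKM in control 1 to 3 and at 34.2, 30 and 28.9 FPKM in isolated 1 to 3. Each isolated value but that of isolated 1 lay within the control range. Cacna1e stood at 25.6 ± 3.72 FPKM in control and 24 ± 1.94 FPKM in isolated libraries, Cacna1b at 20.6 ± 0.654 and 20.2 ± 0.927 FPKM, and Cacna1i at 20.6 ± 1.87 and 19.6 ± 1.42 FPKM (SD, n = 3). Cacna1d stood at 8.97 ± 0.361 and 9.1 ± 0.477 FPKM and Cacna1h at 9.04 ± 2.49 and 9.08 ± 1.14 FPKM (SD, n = 3). Cacna1g was counted at 145, 107 and 147 CPM in control 1 to 3 and at 153, 146 and 118 CPM in isolated 1 to 3, lowest in control 2 and isolated 3. Its log2 difference was 0.07 (95% interval -0.26 to 0.39, edgeR adjusted p = 0.999).

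Cacna1c, the main L-type gene of brain and heart, had the second smallest p of the channel genes. It was counted at 108, 157 and 122 CPM in control 1 to 3 and at 113, 106 and 113 CPM in isolated 1 to 3. Control 2 was the high library, and control 1 lay among the isolated values. The log2 difference was -0.22 (95% interval -0.52 to 0.08, unadjusted p = 0.122, edgeR adjusted p = 0.999), and it was -0.05 without control 2. Cacna1s, the L-type gene of skeletal muscle, was scarce, at 0.919, 1.47 and 0.605 CPM in control 1 to 3 and at 0.76, 0.381 and 0.852 CPM in isolated 1 to 3. These values overlap, and the antisense gene Gm37759 covers 20% of its exon bases, and whether the counting separated the strands is not known.

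Of the alpha-2-delta genes, whose extracellular products raise the number of calcium channels at the membrane, Cacna2d1 and Cacna2d3 were highest. Cacna2d1, which encodes a receptor of gabapentin, stood at 42.2, 43.8 and 50.9 FPKM in control 1 to 3 and at 43, 42.9 and 36.9 FPKM in isolated 1 to 3. Control 3 was the high library and isolated 3 the low one. The log2 difference of Cacna2d1 was -0.16 (SE 0.1, 95% interval -0.39 to 0.07, unadjusted p = 0.15, edgeR adjusted p = 0.999), and it was -0.07 without control 3 and -0.08 without isolated 3. Cacna2d3 stood at 33.9 ± 7.9 and 30.3 ± 5.22 FPKM (SD, n = 3). Cacna2d2, the other gabapentin receptor gene, was counted at 55.3, 72.1 and 44.1 CPM in control 1 to 3 and at 48.3, 48.2 and 81.9 CPM in isolated 1 to 3, highest in control 2 and isolated 3. Its log2 difference was 0.06 (95% interval -0.52 to 0.63), against -0.25 without isolated 3. Cacna2d4, best known from the retina, was counted at 3.14, 2.23 and 2.31 CPM in control 1 to 3 and at 2.66, 2.5 and 3.09 CPM in isolated 1 to 3, with overlapping groups.

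The calcium channel beta subunits, cytoplasmic proteins that bind the alpha-1 subunit and bring it to the membrane, summed to 246, 243 and 247 FPKM in control 1 to 3 and to 238, 236 and 235 FPKM in isolated 1 to 3. These sums did not overlap between the groups, the only 1 of the 6 family sums for which this held. Of all tested single genes, 8.85% did not overlap on CPM. The sum of the beta genes was singled out after its values were seen and was not tested, and for each of its 4 genes the groups overlapped. Cacnb3 was highest, at 123, 118 and 126 FPKM in control 1 to 3 and at 120, 121 and 108 FPKM in isolated 1 to 3. Isolated 3 was the low library, and the other 5 lay between 118 and 126 FPKM. Cacnb1 was counted at 202, 205 and 196 CPM in control 1 to 3 and at 197, 186 and 199 CPM in isolated 1 to 3. Its log2 difference of -0.05 had the smallest standard error of the channel genes, 0.05 (95% interval -0.17 to 0.07, edgeR adjusted p = 0.999). Cacnb4 stood at 47.9 ± 3.35 and 47.3 ± 1.12 FPKM and Cacnb2 at 12.6 ± 3.29 and 12.4 ± 2.06 FPKM (SD, n = 3). The opposite-strand gene A430018G15Rik covers 16% of the exon bases of Cacnb4.

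Hcn2 held between 72% and 78.4% of the summed HCN FPKM. It stood at 54.1, 47.5 and 44.3 FPKM in control 1 to 3 and at 46, 45.8 and 55.9 FPKM in isolated 1 to 3. Control 1 and isolated 3 were the high libraries. Hcn3 was counted at 12.7, 13.7 and 14.2 CPM in control 1 to 3 and at 15.5, 16.9 and 12.6 CPM in isolated 1 to 3. Isolated 1 and isolated 2 lay above the controls, and isolated 3 was about level with control 1, the lowest of them. The log2 difference was 0.14 (95% interval -0.13 to 0.42, unadjusted p = 0.257, edgeR adjusted p = 0.999). It was 0.26 without isolated 3 (unadjusted p = 0.0328, edgeR adjusted p = 0.977) and 0.05 without isolated 2. Exons of Pklr, on the other strand, cover 17.1% of the exon bases of Hcn3.

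Hcn4, known as the pacemaker channel of heart and thalamus, had the smallest p of the channel genes. It was counted at 2.87, 5.77 and 4.51 CPM in control 1 to 3 and at 3.15, 3.05 and 3.09 CPM in isolated 1 to 3. The isolated libraries were close together, and control 1 lay below all of them. The log2 difference was -0.5 (SE 0.25, 95% interval -1.08 to 0.07, unadjusted p = 0.0793, edgeR adjusted p = 0.999). It was -0.73 without control 1 (unadjusted p = 0.00422, edgeR adjusted p = 0.934) and -0.25 without control 2.

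In the comparison of isolated with control libraries, which asks how early social isolation alters gene expression in this region, no channel gene passed the threshold of an adjusted p under 0.05. With edgeR's quasi-likelihood test 0 of 32 tested channel genes were higher and 0 were lower, as were 0 of all 15169 genes (0%). At an unadjusted p under 0.05 there were 0 of 32 channel genes, against 535 genes or 3.53% of all tested. DESeq2 called 0 of the 32 (1 of all genes, Fkbp5, 0.00659%), with 0 of 32 at an unadjusted p under 0.05 (2.02% of all genes). Limma-voom and limma on log2(FPKM + 1) also called 0 of the 32, with 0 at an unadjusted p under 0.05 (3.53% and 3.82% of all genes). For none of the 32 did the 3 isolated values lie all above or all below the 3 control values, against 8.85% of all tested genes (4.12% above and 4.73% below). Without both control 2 and isolated 3, 0 of 33 tested channel genes had an unadjusted p under 0.05 with edgeR (460 of all 15180 genes). With 1 library left out, at most 2 channel genes reached it, none at an adjusted p under 0.05. They were 2 of 33 without control 1 (741 of all 15354 genes) and 2 of 34 without control 2 (410 of 15337). They were 1 of 34 without isolated 1 (472 of 15360) and 2 of 33 without isolated 3 (528 of 15325). Without control 3 (860 of 15336) or isolated 2 (369 of 15373) they were 0 of 33. Among them were Cacna1c and Hcn4 without control 1, Scn1a and Cacna1h without control 2, Scn10a without isolated 1, and Hcn3 without isolated 3.

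The intervals bound what these libraries could have shown. The log2 difference had a standard error of 0.05 for Cacnb1 and of 0.62 for Scn4b. For 21 of the 32 genes the 95% interval lay within -0.5 and 0.5, and for 27 within -1 and 1. Wider intervals were those of Scn4b, Scn9a, Cacna1s and Hcn4, among others. A p that misses the threshold does not show that the groups were alike.

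**Figure D2:**
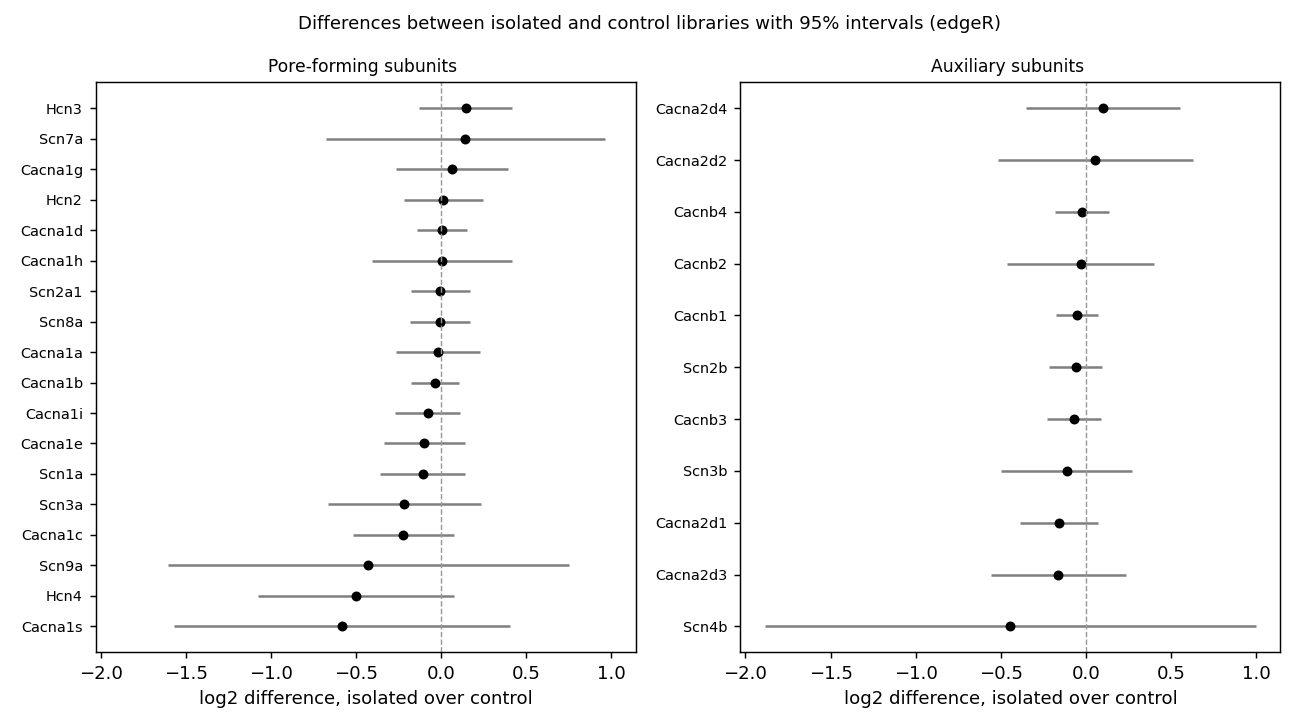
Log2 difference of isolated over control libraries (point) with its 95% interval (line) from edgeR, for the pore-forming (left) and auxiliary (right) genes reported here. Every interval drawn includes 0, from the narrow one of Cacnb1 (-0.17 to 0.07) to the wide one of Scn4b (-1.89 to 1).

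Pore-forming and auxiliary genes did not part in direction. Of the pore-forming genes 13 of 20 had a lower and 7 a higher mean in isolated libraries, with a median log2 difference of -0.03. Of the auxiliary genes 10 of 12 had a lower and 2 a higher mean, with a median of -0.06. Over all 15169 tested genes 50.8% had a lower mean, with a median of 0, and quartiles of -0.08 and 0.07. On log2(FPKM + 1) the medians were -0.02 for pore-forming and -0.05 for auxiliary genes. The median of the pore-forming genes varied between libraries of a group with an SD of 0.05, as did that of the auxiliary genes, and without control 2 the auxiliary median was 0. By family, 6 of 7 sodium channel alpha, 4 of 4 sodium channel beta, 6 of 9 calcium channel alpha-1, 2 of 4 alpha-2-delta, 4 of 4 calcium channel beta and 1 of 4 HCN genes had a lower mean in isolated libraries. None of these passed the test.

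The ratio of auxiliary to pore-forming messenger RNA differed between families. Sodium channel beta genes summed to 3.67, 3.83 and 2.92 times the FPKM of the alpha genes in control 1 to 3 and to 3.12, 3.05 and 3.75 times in isolated 1 to 3. The low ratios were in the libraries with little Scn4b. Without Scn4b the ratio was 3.19, 2.65 and 2.7 in control and 2.84, 2.77 and 2.89 in isolated libraries. Calcium channel beta genes summed to between 1.69 and 1.76 times the alpha-1 genes in all 6 libraries, and alpha-2-delta genes to between 0.568 and 0.697 times. The groups overlapped in each of these ratios, as the plot of ratios by library shows.

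**Figure D3:**
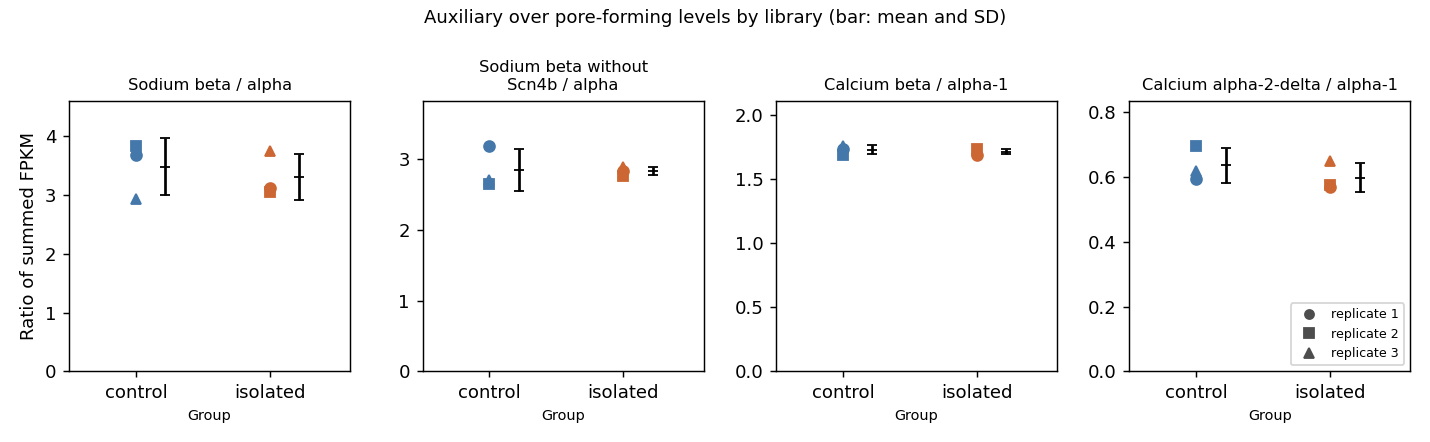
Ratio of summed auxiliary FPKM to summed pore-forming FPKM in each library (points, symbol by replicate), with the mean and SD of each group of 3 beside them, on axes that start at 0. The calcium channel beta ratio stayed between 1.69 and 1.76, and the sodium channel beta ratio ranged from 2.92 to 3.83 with Scn4b and from 2.65 to 3.19 without it.

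Differences between libraries of the same group were larger than those between groups for several channel genes. The highest library held more than 2 times the lowest for 6 of the 32 genes (11.1% of all tested genes), among them Scn4b, Scn7a, Scn9a, Cacna1s and Hcn4, and less than 1.5 times for 20 of the 32 (74.2% of all tested genes). Of these, Scn4b was abundant, and Scn7a, Scn9a, Cacna1s and Hcn4 had means of at most 1.15 FPKM in either group. For 11 of the 32 genes control 2 was the highest control and isolated 3 the highest isolated library, as it was for 17.6% of all tested genes. Among these were Scn3a, Scn4b, Scn9a, Cacna1e, Cacna1h, Cacna1s, Cacna2d2, Cacna2d3, Cacnb1 and Cacnb2. For 7 of the 32 the same pair was lowest in its groups (18% of all tested genes), among them Scn8a, Cacna1a, Cacna1d, Cacna1g and Cacnb3. The 2 libraries are those that were highest in striatal markers, whose part in these levels was not tested.

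None of the 5 pairs of tested channel genes that lie next to each other shared this pattern. On chromosome 2 Scn3a (65457118 to 65567591) was highest of its group in control 2 and isolated 3, while Scn2a1, 53.2 kb away (65620764 to 65767447), had its highest CPM in control 3 and isolated 1. In the same region Scn9a was highest of its group in control 2 and isolated 3, and Scn1a, 39.2 kb from it, was highest in control 1 and isolated 1. Cacna1c and Cacna2d4, 39.1 kb apart on chromosome 6, were highest in different controls, control 2 and control 1. Among isolated libraries Cacna2d4 was highest in isolated 3. Cacna1c was nearly level in isolated 1 and isolated 3, at 112.9 and 112.8 CPM.

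**Figure D4:**
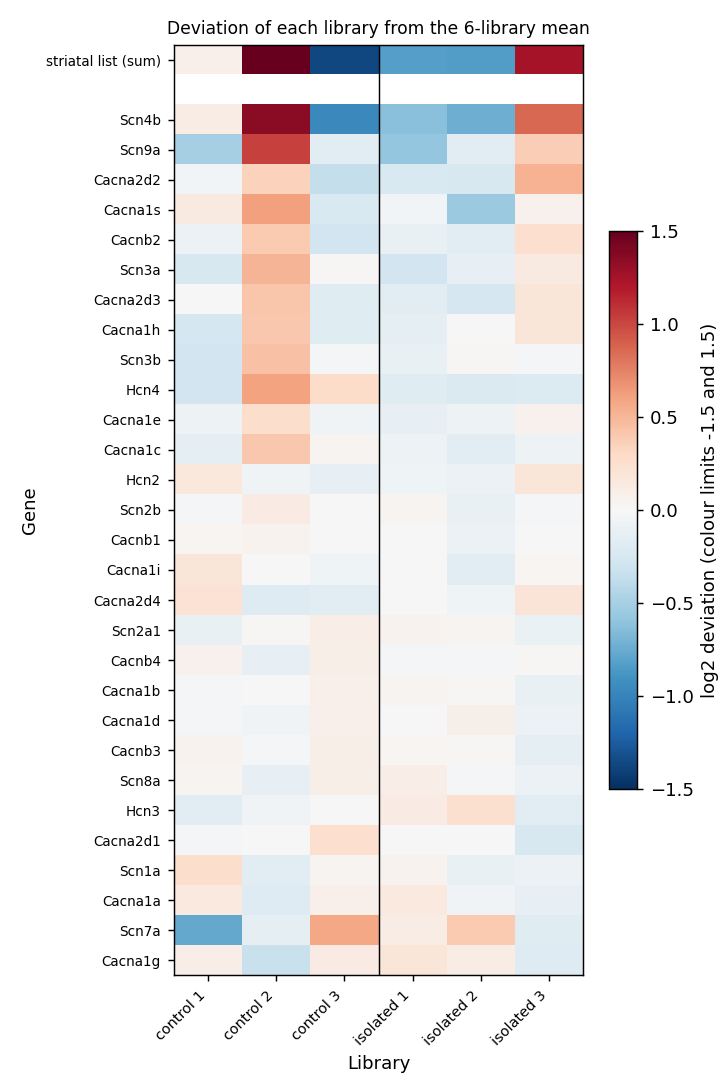
Log2 deviation of each library from the mean of the 6 libraries for the tested channel genes reported here (log2 of CPM + 0.5), ordered by their level in control 2 and isolated 3, with the summed striatal list (log2 CPM) on top. Scn4b and Scn9a share the high values of the striatal list in control 2 and isolated 3, and Cacna1g lies at the other end.

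The deposited length of a gene is weighted by which of its transcripts the reads were assigned to, and it gives a coarse view of transcript use. Of 18 tested channel genes with more than 1 transcript in the deposited tables, 17 had a deposited length that varied between libraries, by at most 2.36%. The range exceeded 1% for 5 of them, among them Cacnb1, Cacna1d, Cacnb2 and Cacna1s. Cacna1d was the only 1 of the 18 with groups apart, as were 9.09% of all 4797 tested genes with more than 1 transcript, at 9027, 8948 and 8967 bases in control 1 to 3 and at 8870, 8947 and 8914 bases in isolated 1 to 3. The nearest values, 8948 and 8947 bases, differ by less than the spread within either group, and it was singled out after the values were seen.

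Of 36 genes listed as partners of these channels, which hold the fibroblast growth factor homologues, calcium channel gamma subunits, calmodulins, axon initial segment scaffolds and the sodium leak channel complex, 34 were tested. With edgeR 0 were higher and 0 lower at an adjusted p under 0.05 (0% of all tested genes). A lower mean in isolated libraries was found for 22 of 34 (50.8% of all tested genes), and the median log2 difference was -0.02. The calmodulin genes were the highest. Calm2 stood at 912, 1015 and 984 FPKM in control 1 to 3 and at 970, 982 and 941 FPKM in isolated 1 to 3, and Calm3 had a mean level of 667 FPKM. Stac3, an adaptor of the skeletal muscle calcium channel, was the 1 partner with an unadjusted p under 0.05 (3.53% of all tested genes). It was counted at 1.62, 1.58 and 0.88 CPM in control 1 to 3 and at 0.543, 0.653 and 0.905 CPM in isolated 1 to 3, with isolated 3 above control 3. Its log2 difference was -0.95 (95% interval -1.72 to -0.18, unadjusted p = 0.0222, edgeR adjusted p = 0.999).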

How the data were processed

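Per the labels' protocols, RNA was sequenced on the BGISEQ-500 platform at a read length of 50 bases. The authors deposited, per the file headers, an expected count (estimated reads per gene, not normalized), an FPKM value (scaled by gene length and library size) and a length for each gene and library. HISAT, Bowtie2, RSEM and mm10 were used per the submitters' processing notes, which state no version. Use of strand in counting is not given in these sources. For 17 of the 32 tested channel genes an expected count was more than 0.05 from a whole number in at least 1 library.

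Genes missing from a library were set to 0, and 1 row per table without a symbol, at most 0.000947% of the counts, was left out. A table with 6 columns of per-sample values was not used, because its codes match no label. Expected counts were rounded and tested in R 4.3.3 with edgeR 4.0.16 (quasi-likelihood F-test, filterByExpr with a minimum count of 10 and total of 15, TMM factors from 0.991 to 1.012), which kept 15169 of 19943 genes. Benjamini-Hochberg adjustment ran over the whole table of tested genes. A standard error is the log2 difference divided by the square root of F. The test was checked on simulated data. All 36 gene IDs matched the RefSeq table of GRCm38.p6. Overlaps use GENCODE M21 (GRCm38).

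Values were named for channel genes with an unadjusted p under 0.05, for the 3 with the smallest p in each direction within each class, for the highest of each family by FPKM and for the 3 with the largest SD of log2(CPM + 0.5). A few genes that these rules name are not reported here. Partners were named by an unadjusted p under 0.05 or as the 3 highest. The genes, lists and rules were chosen with earlier results of these data known. Alternatives were DESeq2 1.42.0, limma 3.58.1 (voom, and log2 FPKM with pseudocounts of 1 and 0.1), RLE scaling, no filter, each library left out, control 2 and isolated 3 left out together, a replicate block and the striatal list as a covariate.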

Additional observations from a re-analysis of the deposited data

How the results depend on the processing

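Over 16 alternatives, 0 channel genes and 0 of all genes passed an adjusted p under 0.05, except that DESeq2 called 1 of all genes, Fkbp5. The named genes gave 220 of 240 values with the same sign and 20 with the opposite one. For 7 of the 15 named genes (Cacna1c, Cacna1s, Cacna2d1, Cacnb1, Cacnb3, Hcn3 and Hcn4) the sign was the same in all 16. For the other 8 the log2 difference crossed 0 when 1 library was left out or, for Cacna2d4, when a pair was.

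With 1 library left out at a time, the range was -0.111 to 0.0499 for Cacna1a, -0.0667 to 0.17 for Cacna1g, -0.25 to 0.26 for Cacna2d2, -0.08 to 0.0982 for Hcn2, -1.15 to 0.36 for Scn4b, -0.0645 to 0.0342 for Scn8a and -0.79 to 0.31 for Scn9a. For the genes that kept their sign it was -0.334 to -0.0527 for Cacna1c, -0.838 to -0.194 for Cacna1s, -0.211 to -0.0654 for Cacna2d1, -0.071 to -0.021 for Cacnb1, -0.103 to -0.0164 for Cacnb3, 0.0505 to 0.255 for Hcn3 and -0.732 to -0.25 for Hcn4. The pore-forming median ranged from -0.0859 (without isolated 3) to -0.026 (without control 2) and the auxiliary median from -0.0768 (without isolated 3) to 0.00372 (without control 2). Without both control 2 and isolated 3 the difference was -0.0441 for Cacna2d2, -0.0781 for Cacna2d4 and -0.103 for Hcn2. The cause of these shifts was not tested.

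No pairing by replicate number was seen: same-numbered libraries had deviations correlated between -0.551 and 0.05, and 1 of 6 libraries correlated best with its own number. Control 2 and isolated 3, the pair highest in striatal markers, had a correlation of 0.49. A difference of that kind could hide a pairing by number, so the check does not settle it. With a replicate block 0 genes passed, and the pore-forming and auxiliary medians were -0.03 and -0.06. With 3 libraries a group the errors are wide for scarce genes such as Cacna1s and Hcn4 and for the abundant Scn4b.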
